A study of Mus musculus with 18 samples.

Results

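The aldehyde dehydrogenase and retinoic acid pathway was followed through 8 genes chosen by symbol: Aldh1a1, Aldh1a7, Aldh2, Cyp26b1, Rara, Rarb, Rarg and Rxra. All 8 were present among the 24421 genes of the count matrix, and 7 of them were among the 12808 genes that entered the tests, for which the normalized counts per sequencing depth (CPM) averaged 1 or more over the libraries. Aldh1a7 was below that level. The matrix held RNA-seq counts of hematopoietic stem cells (HSCs) sorted from the bone marrow of young mice (2 to 3 months) and aged mice (23 to 25 months). All mice carried the Hoxb5-tri-mCherry reporter on a C57BL/6J background, in which mCherry marks cells that express Hoxb5. At each age, Hoxb5-positive HSCs (LT-HSCs), Hoxb5-negative HSCs (ST-HSCs) and immunophenotypic HSCs taken without regard to Hoxb5 (bulk-HSCs) were each represented by 3 libraries, which gave 6 groups and 18 libraries. LT-HSCs and ST-HSCs were therefore separated by the reporter alone, and bulk-HSCs were a mixture that could hold cells of both kinds. The study reported that ST-HSCs became fewer relative to LT-HSCs within bulk-HSCs as mice aged.

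Retinoic acid is made from retinol (vitamin A) by an oxidation to retinal and a further oxidation by retinaldehyde dehydrogenases. It enters the nucleus, where it binds heterodimers of a retinoic acid receptor (RAR) and a retinoid X receptor (RXR) on direct repeats of a short motif, and it is cleared by enzymes of the Cyp26 family. In HSCs the pathway is known for its link to dormancy, and aldehyde dehydrogenases are also known for clearing reactive aldehydes and for the enzyme activity by which primitive cells can be sorted.

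The library totals ranged from 16495048 to 22973844 counts. The number of genes with at least 1 count was 11548 to 13876 in the young libraries and 13526 to 14133 in the aged libraries. Young LT-HSCs replicate 3 and young ST-HSCs replicate 3 stood apart, since 163 and 160 of the 9653 abundant genes had no count there, against 1 to 67 in the other young libraries and 2 to 6 in the aged libraries. Hoxb5 was 8.20 to 40.3 CPM in LT-HSCs and 0 to 4.56 CPM in ST-HSCs over both ages, so these groups did not overlap in the gene used for the sort. In bulk-HSCs its mean was 3.97 CPM in the young and 9.80 CPM in the aged libraries. The part of a changed mixture in the age differences of bulk-HSCs was not tested. The 10 HSC identity genes summed to 3349 to 4554 CPM in all 18 libraries. Kit and Hlf were the highest of them, and the sum can hide genes that differ. Mean Slamf1 in young and aged libraries was 21.9 and 43.6 CPM in ST-HSCs and 31.9 and 61.9 CPM in bulk-HSCs. In LT-HSCs it was 63.4 and 67.8 CPM. Whether the replicates were separate animals, and whether the fractions shared animals, is not given in the labels. The tests took the 18 libraries as independent, so p-values measure the spread between these libraries.

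The promoters of 7 of the 8 genes were found in RefSeq (GRCm38.p6), as 13 windows of 250 bases before to 50 bases after a start. Of these, 1 window held a direct repeat of retinoic acid half-sites, searched as AGGTCA or AGTTCA or GGGTCA or GGTTCA in either of the repeat's places, on both strands, with a gap of 1, 2 or 5 bases. It was the Rarb window at chr14:16575427-16575726 (minus strand), inside the Rarb gene, and the repeat had a gap of 5 bases and lay 53 to 37 bases before the start. A repeat with this gap was present in 32 of 32851 RefSeq promoter windows (0.0974%), one with a gap of 2 bases in 88 (0.268%) and one with a gap of 1 base in 73 (0.222%). The Rarb window is shown with the repeat in capitals, followed by windows of the genes with the largest estimated changes with age, Aldh1a1 (chr19:20601718-20602017, plus strand, 1 of 2 starts) and Cyp26b1 (chr6:84593761-84594060, minus strand), in which no such repeat was found. Single half-sites and sequence outside the windows were not searched. All windows shown are written 5′ to 3′ on the strand of the gene.
Rarb: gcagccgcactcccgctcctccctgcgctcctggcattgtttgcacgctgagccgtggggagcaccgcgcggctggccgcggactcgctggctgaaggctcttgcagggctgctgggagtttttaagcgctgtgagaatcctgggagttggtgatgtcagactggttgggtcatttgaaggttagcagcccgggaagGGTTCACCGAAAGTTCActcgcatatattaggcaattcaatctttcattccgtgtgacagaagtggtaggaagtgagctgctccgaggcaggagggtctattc
Aldh1a1: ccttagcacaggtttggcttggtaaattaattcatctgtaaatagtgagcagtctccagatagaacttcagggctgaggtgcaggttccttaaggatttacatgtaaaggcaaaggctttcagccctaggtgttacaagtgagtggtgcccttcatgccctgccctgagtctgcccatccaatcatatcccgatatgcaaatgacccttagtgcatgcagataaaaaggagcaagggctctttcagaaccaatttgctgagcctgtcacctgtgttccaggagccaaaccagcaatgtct
Cyp26b1: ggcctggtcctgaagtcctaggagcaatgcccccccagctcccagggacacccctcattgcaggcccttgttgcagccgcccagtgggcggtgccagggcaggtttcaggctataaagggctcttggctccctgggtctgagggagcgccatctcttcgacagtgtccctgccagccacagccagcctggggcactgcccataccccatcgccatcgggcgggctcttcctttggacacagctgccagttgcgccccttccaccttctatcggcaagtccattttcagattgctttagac
A match of letters is a description of the sequence and was not tested for binding.

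The question of each age comparison was whether a gene's level differed between aged and young cells of the same fraction. Among the 7 tested genes, Aldh1a1 rose with age in all 3 fractions, and it was the only one of the 7 called in any single fraction (edgeR quasi-likelihood test, Benjamini-Hochberg adjusted p under 0.05 over 12808 genes). The count of 1 of 7 stood beside 0.445% of all tested genes called for LT-HSCs, 0.851% for ST-HSCs and 1.98% for bulk-HSCs. When the age effect was averaged over the 3 fractions, 4 of the 7 genes rose, namely Aldh1a1, Cyp26b1, Rarb and Rxra, and none fell, beside 6.75% of all tested genes called in either direction and 4.34% called higher. Of the other 3, Rarg had an estimate above 0 in each fraction, and Aldh2 and Rara had estimates near 0 relative to their errors. The averaged test took the libraries of the 3 fractions as independent, though the fractions may share animals. The median log2 fold change of the 7 genes averaged over the fractions was 0.95, against 0.04 over all tested genes. The genes had been fixed with earlier results of these data known, so these counts are no independent test of the pathway. With the number of detected genes in each library added to the fit, the averaged count was 1 (Aldh1a1) beside 1.19% of all tested genes, with log2 fold changes of 1.13 for Cyp26b1 (adjusted p = 0.605), 0.47 for Rarb (adjusted p = 0.689) and 1.17 for Rxra (adjusted p = 0.160). That number moved with age, as given above. DESeq2 called 1 of the 7 genes with age in LT-HSCs (2.26% of all tested genes), 2 in ST-HSCs (3.5%), 3 in bulk-HSCs (5.79%) and 4 over the averaged fractions (11.7%), so it called more genes of the whole matrix than edgeR in each.

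**Figure D1:**
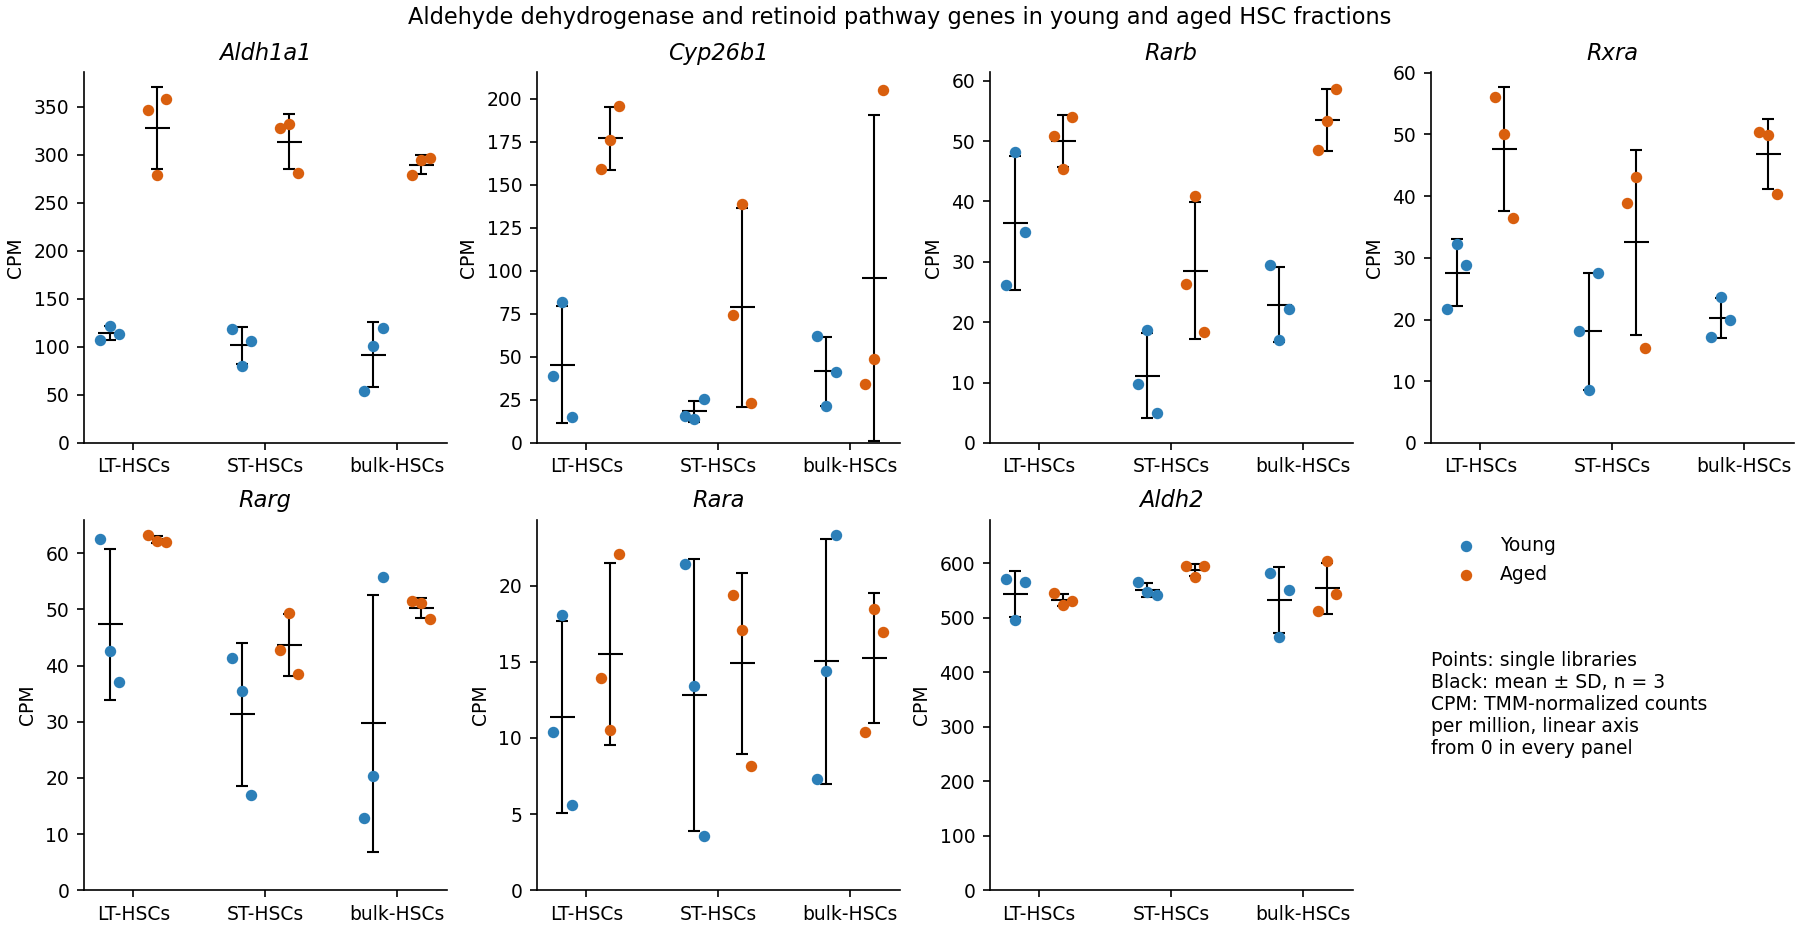
Level of 7 genes in every library (y axis, TMM-normalized CPM on a linear scale from 0; x axis, HSC fraction). Points are single libraries of young (blue) and aged (orange) mice and black bars are the mean ± SD of 3 libraries; aged Aldh1a1 lay between 279 and 358 CPM and young Aldh1a1 between 54.1 and 122 CPM, while Aldh2 stayed between 465 and 604 CPM at both ages.

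Aldh1a1 encodes a cytosolic retinaldehyde dehydrogenase that produces retinoic acid and lies at chr19:20492715-20643465 (GRCm38, plus strand). In LT-HSCs it was 107, 122 and 114 CPM in the young libraries and 346, 279 and 358 CPM in the aged libraries. The lowest aged library was well above the highest young library, and the mean rose 2.87-fold, from 114 ± 7.49 to 328 ± 42.4 CPM (SD, n = 3 each). The log2 fold change was 1.52 ± 0.21 (SE, edgeR adjusted p = 0.00404).

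In ST-HSCs Aldh1a1 was 118, 80.6 and 107 CPM in the young libraries and 328, 332 and 281 CPM in the aged libraries. The groups were again separate, with a log2 fold change of 1.62 ± 0.21 (SE, edgeR adjusted p = 0.000564). In bulk-HSCs it was 54.1, 101 and 120 CPM in the young libraries and 279, 294 and 296 CPM in the aged libraries. Young bulk-HSCs replicate 1 was the lowest of the 18 libraries, and the log2 fold change was 1.66 ± 0.21 (SE, edgeR adjusted p = 0.000368). The log2 fold change averaged over the fractions was 1.60 ± 0.12 (SE, adjusted p = 3.03e-07). The age effect in LT-HSCs differed from that in ST-HSCs by -0.11 on the log2 scale (95% interval -0.74 to 0.53) and from that in bulk-HSCs by -0.14 (95% interval -0.78 to 0.50). The call held in each of the 15 alternative fits of each fraction. In bulk RNA, more cells that express a gene and more RNA per cell cannot be told apart.

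Aldh1a7 encodes the closest relative of Aldh1a1 and lies beside it at chr19:20692953-20727562 (minus strand). It had 41 counts (1.86 CPM) in young ST-HSCs replicate 2 and no count in the other 17 libraries, where a count of 0 allows up to 0.132 to 0.176 CPM (3 counts, counting error only). The longest coding transcripts of Aldh1a1 and Aldh1a7 were 90.3% identical over 2011 aligned bases, and 151 of the 2309 windows of 50 bases in the Aldh1a1 transcript (6.54%) and 0 of its 2232 windows of 127 bases (the read length) occurred in the Aldh1a7 transcript. The Aldh1a7 library with counts was the second lowest of the 9 young libraries for Aldh1a1, at 80.6 CPM.

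Aldh2 encodes the mitochondrial enzyme that clears acetaldehyde and lies at chr5:121566027-121593824 (minus strand). Per kilobase of exon it was the highest of the 8 genes, at 107 ± 7.05 CPM per kilobase (SD over 18 libraries). In ST-HSCs it was 566, 547 and 541 CPM in the young libraries and 594, 575 and 595 CPM in the aged libraries. These groups did not overlap, but the log2 difference was only 0.09 ± 0.09 (SE, edgeR adjusted p = 0.916). In LT-HSCs the young libraries ranged from 495 to 570 CPM and the aged libraries from 524 to 545 CPM, and in bulk-HSCs the ranges were 465 to 582 and 513 to 604 CPM. Averaged over the fractions the log2 fold change was 0.04, with a 95% interval of -0.08 to 0.16, which leaves out changes of the size seen for Aldh1a1.

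**Figure D2:**
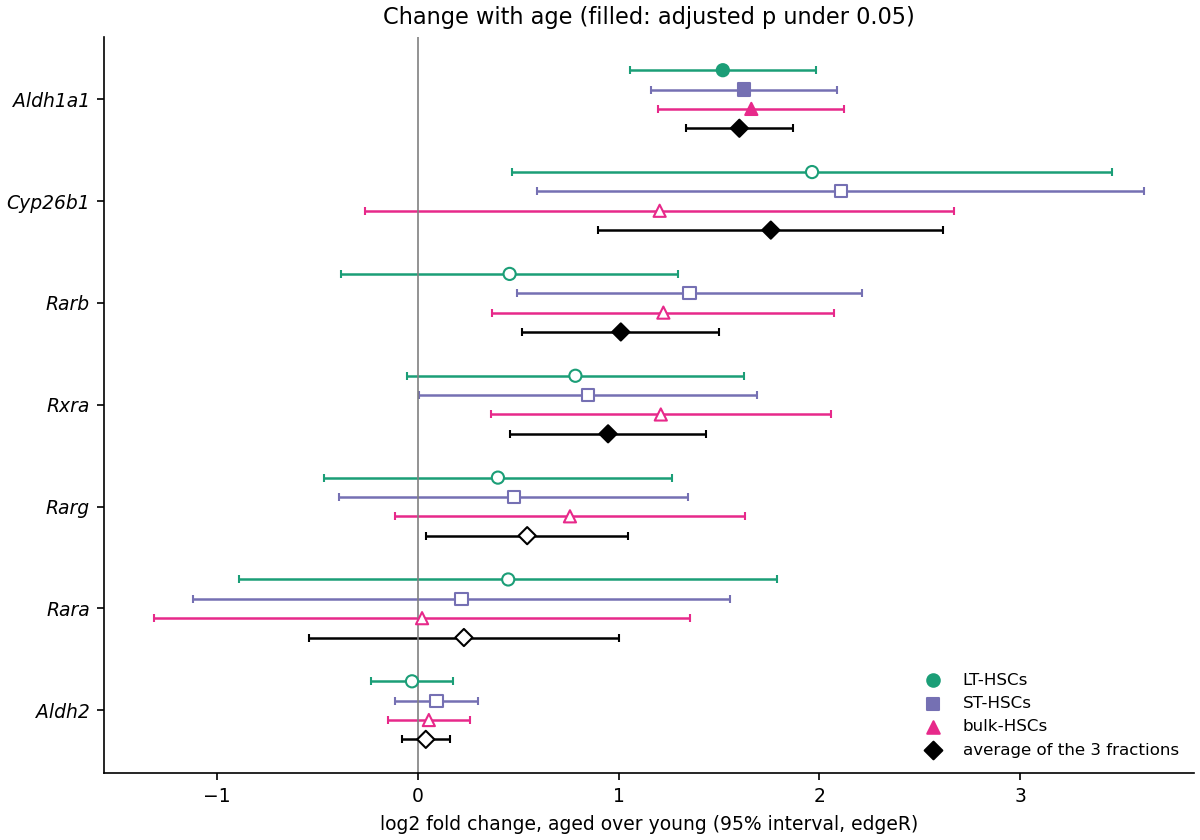
Log2 fold change of aged over young libraries (x axis) for the 7 tested genes (y axis) in each fraction and averaged over the 3 fractions. Symbols are edgeR estimates, bars are 95% intervals and filled symbols have an adjusted p under 0.05; the 4 Aldh1a1 estimates lie between 1.52 and 1.66, and the averaged Aldh2 interval runs from -0.08 to 0.16.

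Cyp26b1 encodes a cytochrome P450 that breaks retinoic acid down and lies at chr6:84571414-84593908 (minus strand). In LT-HSCs it was 38.8, 82.1 and 15.1 CPM in the young libraries and 159, 176 and 195 CPM in the aged libraries. Every aged library was above every young one and the mean was 3.90-fold higher (45.3 ± 34 against 177 ± 18.1 CPM, SD, n = 3 each). The log2 fold change of 1.96 ± 0.69 did not pass the test (SE, edgeR adjusted p = 0.328), and the young libraries were scattered from 15.1 to 82.1 CPM.

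In ST-HSCs Cyp26b1 was 15.9, 13.7 and 25.3 CPM in the young libraries and 74.1, 139 and 23.1 CPM in the aged libraries, so the third aged library fell among the young ones (log2 fold change 2.11 ± 0.69, adjusted p = 0.212). In bulk-HSCs it was 61.9, 21.6 and 41.4 CPM in the young libraries and 34, 48.5 and 205 CPM in the aged libraries. The bulk difference (log2 fold change 1.2 ± 0.67, adjusted p = 0.497) came from aged replicate 3, without which it was -0.01. Over the averaged fractions Cyp26b1 rose by 1.76 ± 0.39 on the log2 scale (SE, edgeR adjusted p = 0.0102), and between 1.35 and 2.01 when single libraries were left out. Cyp26b1 was the least even of the tested genes per kilobase, from 2.57 to 38.3 CPM per kilobase over the 18 libraries. Its family members Cyp26a1 and Cyp26c1 were not among the tested genes, and Cyp26a1 had no count in any library.

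The 3 RAR genes and Rxra encode the receptor pair, and Rarb is itself a textbook target of retinoic acid through the repeat shown above. Rarb lies at chr14:16430839-16819156 (minus strand). In ST-HSCs it was 9.73, 18.8 and 4.99 CPM in the young libraries and 26.4, 40.8 and 18.5 CPM in the aged libraries. These groups overlapped narrowly, at the highest young and the lowest aged library, and the log2 fold change was 1.35 ± 0.39 (SE, edgeR adjusted p = 0.138). It was called in 2 of 15 alternative fits, DESeq2 and the fit without young ST-HSCs replicate 2 (1.95, adjusted p = 0.0264), and over the 15 it ran from 0.98 to 1.95 with an adjusted p of up to 0.532. In bulk-HSCs Rarb was 29.5, 17.1 and 22.2 CPM in the young libraries and 48.5, 53.3 and 58.7 CPM in the aged libraries.

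The Rarb groups did not overlap in bulk-HSCs, where the mean rose 2.33-fold without passing the edgeR test (log2 fold change 1.22 ± 0.39, adjusted p = 0.133). It was called in 2 of 15 alternative fits, one of them DESeq2 (adjusted p = 0.0232), over which it ran from 0.48 to 1.45 with an adjusted p of up to 0.755. The part of a changed mixture of LT-HSCs and ST-HSCs in this bulk difference was not tested. In LT-HSCs Rarb was 26.1, 48.2 and 34.9 CPM in the young libraries and 50.8, 45.3 and 53.9 CPM in the aged libraries. Young LT-HSCs were thus already close to the aged level, and the log2 fold change was 0.46 ± 0.39 (SE, adjusted p = 0.880). Over the averaged fractions Rarb rose by 1.01 ± 0.22 (SE, adjusted p = 0.00979). The age effect was lower in LT-HSCs than in ST-HSCs by 0.90 on the log2 scale, but the 95% interval of this difference ran from -2.09 to 0.30 and it was not called (adjusted p = 1).

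The exons of Rarb share 1793 bases with those of Top2b, a topoisomerase gene on the opposite strand, out of 5265 bases of Rarb exon. Whether the reads were counted by strand is not given in the sources used here. Top2b was 248 to 378 CPM in the young libraries, 9 of 9 aged libraries lay within that range, and its averaged log2 fold change with age was -0.003 (95% interval -0.17 to 0.16). Across the 18 libraries the correlation of log2 CPM between Rarb and Top2b was -0.24 (Pearson), and 0.06 after the group means were removed. The level of Rarb is uncertain for this reason, and the part of Top2b reads in the Rarb counts was not tested.

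Rxra encodes the partner of the RARs and lies at chr2:27676440-27762957 (plus strand). In LT-HSCs it was 21.7, 32.3 and 28.8 CPM in the young libraries and 56.1, 50.1 and 36.5 CPM in the aged libraries. In bulk-HSCs it was 17.1, 23.6 and 20 CPM in the young libraries and 50.4, 49.9 and 40.3 CPM in the aged libraries. The groups did not overlap in either fraction, with log2 fold changes of 0.78 ± 0.38 (SE, edgeR adjusted p = 0.587) and 1.21 ± 0.39 (adjusted p = 0.136). In ST-HSCs it was 18.1, 8.56 and 27.5 CPM in the young libraries and 38.9, 43.2 and 15.4 CPM in the aged libraries, and replicate 3 crossed in both groups. The log2 fold change there was 0.85 ± 0.39 (adjusted p = 0.482), and averaged over the fractions Rxra rose by 0.95 ± 0.22 (SE, edgeR adjusted p = 0.0141).

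Rarg encodes the RAR known for its role in HSC self-renewal and lies at chr15:102234938-102257517 (minus strand). In LT-HSCs it was 62.5, 42.6 and 37.0 CPM in the young libraries and 63.2, 62.2 and 62.0 CPM in the aged libraries. In bulk-HSCs it was 12.9, 20.4 and 55.8 CPM in the young libraries and 51.5, 51.1 and 48.2 CPM in the aged libraries. The aged libraries were close to each other in both fractions while the young ones were scattered, and the groups overlapped. The log2 fold change averaged over the fractions was 0.54 ± 0.23 (SE, edgeR adjusted p = 0.190), and without young bulk-HSCs replicate 3, the library at 55.8 CPM, it was 0.82 (adjusted p = 0.00785). That was the only call in 26 alternative fits, which ran down to 0.31 with an adjusted p of up to 0.869. In ST-HSCs the ranges were 17 to 41.4 CPM in young and 38.6 to 49.4 CPM in aged libraries.

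Rara encodes the RAR best known from the fusion gene of promyelocytic leukemia and lies at chr11:98927818-98974942 (plus strand). It was the lowest of the tested receptors, with 3.58 to 23.4 CPM in the young libraries and 8.19 to 22.1 CPM in the aged libraries. The ages overlapped in every fraction, and the averaged log2 fold change was 0.23 ± 0.35 (SE, edgeR adjusted p = 0.819). Its 95% interval, from -0.54 to 1.0, holds the averaged estimates of Rarg and Rxra, and differences among the receptors were not tested.

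Over the 7 genes, the ranges of the young and the aged group were separate for 3 genes in LT-HSCs (Aldh1a1, Cyp26b1 and Rxra), 2 in ST-HSCs (Aldh1a1 and Aldh2) and 3 in bulk-HSCs (Aldh1a1, Rarb and Rxra), each time with the aged libraries higher. Separate ranges with the aged libraries higher were found for 10.2% of all tested genes for LT-HSCs, 10.2% for ST-HSCs and 13.4% for bulk-HSCs. At an unadjusted p under 0.05 (edgeR) the counts were 2, 4 and 3 of 7 genes, beside 8.81%, 9.67% and 13.3% of all tested genes.

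Per kilobase of exon, which allows levels to be set between genes, the order over the 18 libraries was Aldh2 (107 CPM per kilobase), Aldh1a1 (41.8), Cyp26b1 (14.2), Rarg (10.4), Rarb (6.41), Rxra (5.89), Rara (3.24) and Aldh1a7 (0.05). The lowest Aldh2 library (90.7 CPM per kilobase) was above the highest Aldh1a1 library (72.5) by this measure. Per kilobase of the longest transcript the ranges of these genes overlapped. Their means were then 43.5 (Aldh1a1) and 140 (Aldh2) in the young libraries and 132 and 144 in the aged libraries. Within an age the order of Cyp26b1 and Rarg differed, at 6.56 and 8.48 CPM per kilobase in the young libraries and 21.9 and 12.2 in the aged libraries. Aldh1a1 (11 to 24.7 CPM per kilobase) overlapped with Cyp26b1 (2.57 to 15.3) in the young libraries but not in the aged libraries (56.4 to 72.5 against 4.31 to 38.3). The neighbours from Cyp26b1 down to Rara overlapped in range at both ages. Between ages the gap of the first pair narrowed, since Aldh1a1 was 20.8 ± 4.48 CPM per kilobase in young and 62.9 ± 6.26 in aged libraries while Aldh2 was 106 ± 7.47 and 109 ± 6.68 (SD, n = 9 each).

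The comparisons between fractions asked whether the pathway differed between Hoxb5-positive cells and the other fractions at the same age. None of the 7 genes was called by edgeR in any of them. Between young LT-HSCs and young ST-HSCs, none was called (0.429% of all tested genes were) and 1 of 7 had an unadjusted p under 0.05, beside 10.4% of all tested genes. This was Rarb, at 26.1, 48.2 and 34.9 CPM in LT-HSCs against 9.73, 18.8 and 4.99 CPM in ST-HSCs. Every LT-HSC library was higher, and the log2 difference of 1.70 ± 0.40 did not pass the test (SE, edgeR adjusted p = 0.0698). It was called in 3 of 15 alternative fits, by DESeq2 (adjusted p = 0.000390, beside 3.02% of all tested genes), with the number of detected genes in the fit (adjusted p = 0.0285) and without young ST-HSCs replicate 2 (2.30, adjusted p = 0.0119), and over the 15 it ran from 1.36 to 2.30 with an adjusted p of up to 0.875. In aged cells the Rarb difference between LT-HSCs and ST-HSCs was 0.81 ± 0.39 on the log2 scale (adjusted p = 1), again with no overlap.

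Cyp26b1 was likewise higher in LT-HSCs than in ST-HSCs by estimate, by 1.31 ± 0.68 on the log2 scale in young cells (SE, edgeR adjusted p = 0.524) and by 1.17 ± 0.67 in aged cells (adjusted p = 1). Between young LT-HSCs and young bulk-HSCs (0.273% of all tested genes called), between aged LT-HSCs and aged ST-HSCs (0.00781% called) and between aged LT-HSCs and aged bulk-HSCs (0% called), 0 of 7 genes were called by edgeR, 0 had an unadjusted p under 0.05 and 0 were called by DESeq2 (3.42%, 0.429% and 0.25% of all tested genes). For Rarb against bulk-HSCs the log2 difference was 0.67 ± 0.39 in young and -0.10 ± 0.38 in aged cells. The difference of the age effect was likewise called for 0 of 7 genes between LT-HSCs and ST-HSCs (0% of all tested genes called) and for 0 of 7 between LT-HSCs and bulk-HSCs (0.00781% called), with 0 at an unadjusted p under 0.05 and 0 by DESeq2 in each (0.648% and 0.953% of all tested genes). These comparisons share their LT-HSC libraries.

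**Figure D3:**
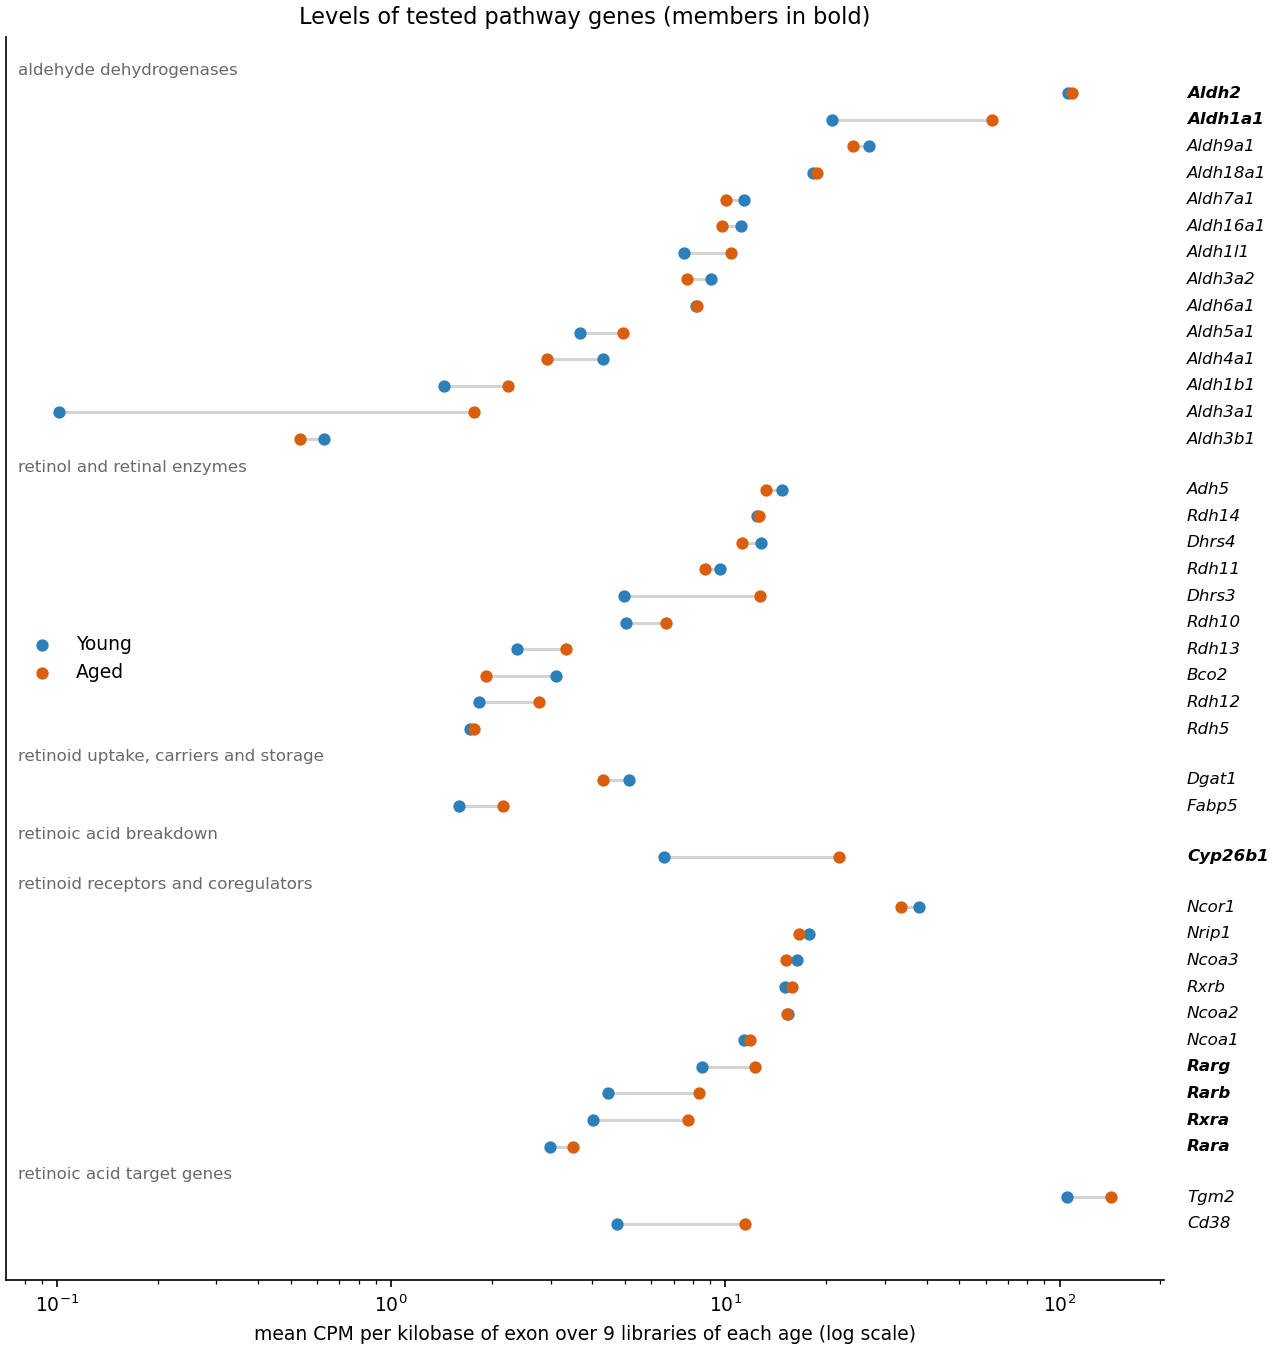
Mean level per kilobase of exon over the 9 young (blue) and 9 aged (orange) libraries (x axis, CPM per kilobase, log scale) for tested genes of the pathway lists, grouped by role, with the chosen genes in bold. Grey lines join the ages of a gene; Tgm2 and Aldh2 stand highest, and Aldh1a1 moved from 20.8 to 62.9 CPM per kilobase.

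Beyond the chosen genes, 66 genes of the wider pathway were listed by role, of which 65 were in the matrix, 18 had no count in any library and 34 were tested. Averaged over the fractions 4 of the 34 rose with age and none fell. Beside this, 4.34% of all tested genes were called higher and 6.75% in either direction. At an unadjusted p under 0.05 (edgeR) the count was 7 of 34, beside 19.7% of all tested genes. Of the 34, 17 had estimates above 0 and 17 below, with a median log2 fold change of 0.01 against 0.04 over all tested genes. The 4 were Dhrs3, Cd38, Tgm2 and Aldh3a1, and 3 of them, Dhrs3, Cd38 and Tgm2, were on the list of retinoic acid target genes, of which 4 of 12 were tested. The median over the 4 tested genes of that list was 0.94, with 3 estimates above 0 and 1 below (-0.28). Of the 12 listed, 5 had no count in any library.

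Dhrs3 encodes a reductase that returns retinal to retinol and is induced by retinoic acid. In bulk-HSCs it was 9.12, 7.31 and 2.71 CPM in the young libraries and 31.3, 53.8 and 21.5 CPM in the aged libraries. The groups were well apart, and the log2 fold change was 2.48 ± 0.44 (SE, edgeR adjusted p = 0.00595), a call lost in 1 of 15 alternative fits, that of the compared groups alone (adjusted p = 0.0823). It was 1.72 ± 0.43 in ST-HSCs (adjusted p = 0.0719) and 0.64 ± 0.42 in LT-HSCs (adjusted p = 0.770), where young levels of 20.2 to 39.5 CPM were the highest of the young groups. The averaged change was 1.61 ± 0.25 (adjusted p = 0.000495).

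Cd38, an NAD-consuming surface enzyme and a known retinoic acid target, was 16.1, 12.7 and 2.85 CPM in young bulk-HSCs and 36.1, 49.0 and 47.6 CPM in aged bulk-HSCs. The groups did not overlap there, with a log2 fold change of 2.07 ± 0.45 (SE, edgeR adjusted p = 0.0204), nor in LT-HSCs (0.86 ± 0.43, adjusted p = 0.608) or ST-HSCs (1.29 ± 0.44, adjusted p = 0.230). The bulk-HSC call was lost in 4 of 15 alternative fits, without aged bulk-HSCs replicate 2 (1.99, adjusted p = 0.0678) or replicate 3 (2.01, adjusted p = 0.0696), with the compared groups alone (adjusted p = 0.151) and with the number of detected genes in the fit (adjusted p = 0.114). Averaged over the fractions it rose by 1.40 ± 0.25 (adjusted p = 0.00202).

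Tgm2, a transglutaminase induced by retinoic acid, was the most abundant gene of the lists, at 124 CPM per kilobase. In ST-HSCs it was 356, 378 and 327 CPM in the young libraries and 441, 596 and 681 CPM in the aged libraries. It rose there by 0.70 ± 0.16 on the log2 scale (SE, edgeR adjusted p = 0.0485), a call that was lost in 10 of the 15 alternative fits. Averaged over the fractions it rose by 0.47 ± 0.09 (adjusted p = 0.00397). Tgm2 was also the only listed gene that edgeR called between fractions, higher in young LT-HSCs (626, 499 and 765 CPM) than in young ST-HSCs by 0.83 ± 0.16 (adjusted p = 0.0269, adjusted p = 0.217 without the 2 libraries that stood apart), and the call was lost in 6 of the 15 alternative fits, among them those without replicate 1 or replicate 3 of either group (adjusted p = 0.0634 to 0.0961). DESeq2 called Rdh10, Dhrs3, Cd38 and Tgm2 there, beside 3.02% of all tested genes. Between young LT-HSCs and young bulk-HSCs it called Dhrs3 and Cd38, beside 3.42% of all tested genes.

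Aldh3a1, an aldehyde dehydrogenase best known from the cornea, had no count in 8 of the 9 young libraries and 1.77 CPM in young bulk-HSCs replicate 2. In the 9 aged libraries it was 0.347 to 8.55 CPM, highest in LT-HSCs (1.85, 5.82 and 8.55 CPM). It was called over the averaged fractions (edgeR adjusted p = 0.0157), and no fold is given because most young libraries were at 0. With the number of detected genes in the fit, the averaged calls of Aldh3a1 (edgeR adjusted p = 0.882) and Cd38 were lost, the latter at a log2 fold change of 1.47 ± 0.41 (SE, adjusted p = 0.113).

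**Figure D4:**
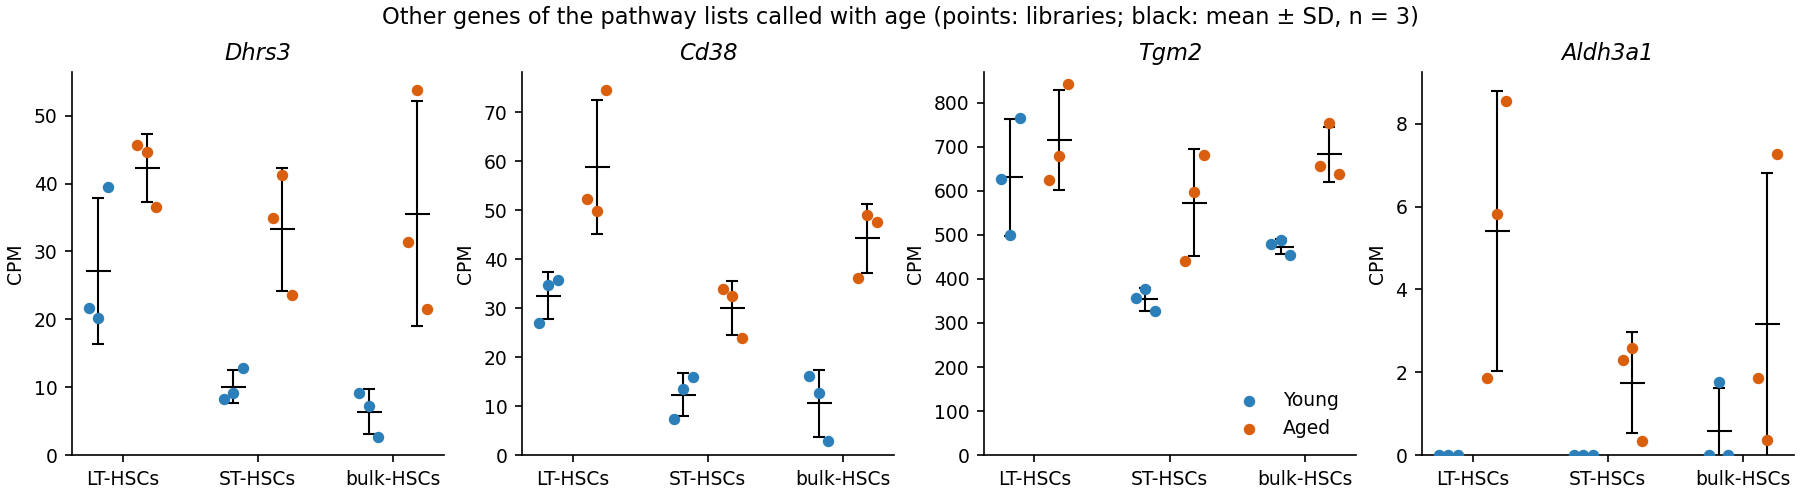
Level of the 4 other pathway genes that rose with age averaged over the fractions (y axis, TMM-normalized CPM on a linear scale from 0; x axis, HSC fraction), with points for single libraries and black bars for the mean ± SD of 3 libraries. In bulk-HSCs, aged Dhrs3 lay between 21.5 and 53.8 CPM and young Dhrs3 between 2.71 and 9.12 CPM; young Aldh3a1 was at 0 in all libraries but 1.

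Of 17 other aldehyde dehydrogenases 12 were tested, and Aldh3a1 was the only one called by edgeR in any age comparison. The highest per kilobase were Aldh9a1 (25.5 CPM per kilobase), Aldh18a1 (18.5) and Aldh7a1 (10.7), all below Aldh1a1, and the other retinaldehyde dehydrogenases Aldh1a2 and Aldh1a3 were not among the tested genes. Of 20 retinol and retinal enzymes 10 were tested, led by Adh5 (14 CPM per kilobase), Rdh14 (12.5) and Dhrs4 (12), with Dhrs3 the only one called by edgeR. Of 12 genes of retinoid uptake, carriage and storage 3 were tested, among them Dgat1 (4.73) and Fabp5 (1.88), and 6 of the 12 had no count in any library. Of 8 other receptors and coregulators 7 were tested and none was called by edgeR in an age comparison, with 2 of 7 at an unadjusted p under 0.05 over the averaged fractions (19.7% of all tested genes) and 2 called there by DESeq2 (11.7%). The corepressor Ncor1 (35.8 CPM per kilobase) and the coregulator Nrip1 (17.2) were each above all 4 chosen receptors.

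By Pearson correlation of log2 CPM over the 18 libraries, the genes most like Aldh1a1 were Mmp14 (r = 0.94), C4b (0.93) and Nupr1 (0.92). Those most like Cyp26b1 were Clec14a (0.88), Dact3 (0.87) and Klf10 (0.84), and those most like Rarb were Evc2 (0.92), Nlrp5-ps (0.91) and Grb10 (0.90). For Rxra they were Megf9 (0.87), Zfp180 (0.87) and Neo1 (0.85), and for Rarg Ublcp1 (0.92), Rrad (0.89) and Rps6ka5 (0.88). For Rara they were Tor1aip1 (0.87), Mybl1 (0.86) and Sugct (0.86), and for Aldh2 Zfp873 (0.79), Twf2 (0.77) and Vangl2 (0.76). The libraries share age, fraction and depth, and with the group means removed the 3 values of Aldh1a1 were 0.55, 0.52 and 0.55, so these are descriptions. Among the chosen genes the closest pairs were Aldh1a1 with Rxra (0.73) and Cyp26b1 with Rxra (0.68), and Dhrs3 followed Cd38 with 0.93. With the group means removed these values were 0.44, 0.32 and 0.71. The closest pair of chosen genes was then Rara with Rarg (0.71, and 0.56 before).

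Markers of other cells were summed in each library. The 5 multipotent and lymphoid progenitor markers, of which Il7r and Dntt had no count in any library, were 51.1 to 91.6 CPM in young ST-HSCs and 15.7 to 25.2 CPM in aged ST-HSCs, and 25.7 to 41.7 CPM in young and 7.22 to 13.1 CPM in aged bulk-HSCs. In LT-HSCs they were 9.16 to 22.3 and 3.88 to 19.2 CPM. The 7 erythroid markers were 0 to 4.49 CPM in young and 9.28 to 14.8 CPM in aged ST-HSCs, 0.996 to 7.25 and 9.98 to 25.2 CPM in LT-HSCs, and 6.10 to 30.8 and 21.5 to 52.5 CPM in bulk-HSCs. The 6 megakaryocyte markers (Gp6 at 0) were 81.0 to 107 and 141 to 175 CPM in ST-HSCs, 67.5 to 109 and 104 to 175 CPM in LT-HSCs, and 97.5 to 153 and 137 to 148 CPM in bulk-HSCs. The 5 endothelial markers (Cdh5 at 0) were 22.4 to 38.6 and 57.0 to 60.9 CPM in bulk-HSCs and 31.2 to 37.6 and 38.5 to 47.9 CPM in ST-HSCs, with 37.2 to 67.2 and 45.9 to 63.2 CPM in LT-HSCs. The part of these lists in the age differences was not tested. The 6 stromal markers summed to 7.19 to 37.2 CPM with Col1a1 and Dcn at 0, the 7 mature myeloid markers to 93.0 to 153 CPM with Mpo at 0, the 5 B cell markers to 10.6 to 29.2 CPM with Ebf1 and Ms4a1 at 0, and the 5 T and NK cell markers to 0 to 8.78 CPM with 4 of the 5 at 0.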

How the data were processed

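RNA of 18 sorted samples was depleted of ribosomal RNA and sequenced as paired reads of 127 bases. The authors aligned the reads with HISAT2 (version 2.1.0) to mm10 and made the deposited raw counts per gene with SAMtools (version 1.7) and StringTie (version 1.3.4d), and the annotation and strand setting are not given in the sources used here. The deposited counts were used without change and all columns of samples were used. Groups were taken from the labels. Genes with a mean TMM-normalized CPM of at least 1 were tested with edgeR 4.0.16 (R 4.3.3), with the 6 groups as means of 1 quasi-likelihood fit over all 18 libraries, Benjamini-Hochberg adjustment within each comparison, and a threshold of 0.05. Intervals are at 95%, on the 12 residual degrees of freedom. The fit was tested on simulated data. Alternatives were other scalings and filters, DESeq2 1.42.0, the replicate number as a block, a covariate for the number of genes detected, fits of the compared groups alone, single libraries left out and, chosen after seeing the data, the 2 libraries with over 100 abundant genes (median of at least 200 counts) at 0 left out. Levels per kilobase used merged GENCODE M21 exons, and longest transcripts as the alternative, and 23384 of the 24421 symbols were named there. Log2 CPM used a prior count of 2. Of the wider pathway, the text names the genes called in any comparison and the 3 highest per kilobase of each list, and for each tested gene the 3 most correlated genes, and some genes of the lists are counted but not reported here by name. The chosen genes, the lists and the tests were fixed with earlier results of these data known. Depth limits the low genes: 3 counts were 0.132 to 0.176 CPM. This limit is of depth alone. In the young libraries 1 to 163 abundant genes were at 0, so a 0 there need not mean a level below it.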

Additional observations from a re-analysis of the deposited data

How the results depend on the processing

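Aldh1a1 was called with age in every alternative tried. Its log2 fold change ranged from 1.45 to 1.62 (LT-HSCs), from 1.48 to 1.75 (ST-HSCs), from 1.40 to 1.90 (bulk-HSCs) and from 1.51 to 1.68 over the averaged fractions. The averaged calls of Cyp26b1, Rarb, Rxra, Cd38 and Aldh3a1 were lost in 1 of 26 alternatives each, the fit with the number of detected genes, which moved with age. DESeq2 called 2 of the 7 genes in ST-HSCs (with Rarb), 3 in bulk-HSCs (with Rarb and Rxra) and 1 (Rarb) in the comparison of young LT-HSCs with young ST-HSCs, where its calls over all genes were 448, 741 and 387 of 12808 against 109, 253 and 55 by edgeR. Of the 34 other pathway genes DESeq2 called 1 with age in LT-HSCs (2.26% of all tested genes) and 3 in ST-HSCs (3.5%). It called 4 between young LT-HSCs and young ST-HSCs (3.02%) and 2 between young LT-HSCs and young bulk-HSCs (3.42%). In the same comparisons and order edgeR called 0, 1, 1 and 0. With the number of detected genes in the fit, 1 of the 7 genes was called over the averaged fractions (153 of all genes, against 864 without it) and 1 (Rarb) between young LT-HSCs and young ST-HSCs, while the other pathway genes called were 0 in ST-HSCs, 1 in bulk-HSCs, 2 over the averaged fractions and 1 between young LT-HSCs and young bulk-HSCs. In the same fit, estimates that had not passed the test turned sign: Aldh2 in LT-HSCs was 0.046, Rarb in LT-HSCs -0.070, and Rara -0.34 (LT-HSCs), -0.44 (ST-HSCs), -1.33 (bulk-HSCs) and -0.70 over the averaged fractions. Scaling by library size alone gave -0.0068 for Aldh2 and -0.041 for Rara in bulk-HSCs. RLE size factors called 0 other pathway genes in ST-HSCs. Fits of the compared groups alone called 0 of them in ST-HSCs, 1 in bulk-HSCs (Tgm2, while the calls of Dhrs3 and Cd38 were lost) and 0 in the comparison of young LT-HSCs and young ST-HSCs.

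Samples that share a replicate number and an age had deviations from the group means that correlated at -0.032 to 0.16 (median 0.022, 18 pairs). Those of the same age with different numbers correlated at -0.16 to 0.062 (median -0.0072, 36 pairs). Between LT-HSCs and ST-HSCs of the same number and age every value was positive. They were 0.011, 0.16 and 0.13 in young and 0.026, 0.046 and 0.067 in aged cells. The labels give no pairing and the numbers were not taken to pair the samples, so the main tests leave out any pairing of LT-HSCs with ST-HSCs. The replicate block gave 0 other pathway genes called in ST-HSCs and -0.016 for Rara in bulk-HSCs. It changed no call of the 7 genes. This block went by replicate number alone, so young and aged samples of the same number were given the same effect. It therefore cannot show whether a pairing of LT-HSCs with ST-HSCs within an age would change the calls, and such a pairing was not tested. Without the 2 libraries with many abundant genes at 0, 2 of the 7 genes were called in bulk-HSCs (Aldh1a1 and Rarb), 0 other pathway genes were called in ST-HSCs and 0 between young LT-HSCs and young ST-HSCs, and over the averaged fractions Top2b was 0.0142, while Rara was -0.22 in ST-HSCs and -0.027 over the averaged fractions. With single libraries left out, 1 to 2 of the 7 genes were called in ST-HSCs, 1 to 2 in bulk-HSCs and 0 to 1 in the comparison of young LT-HSCs with young ST-HSCs. The other pathway genes called were then 0 to 1 in ST-HSCs, 1 to 2 in bulk-HSCs, 0 to 1 between young LT-HSCs and young ST-HSCs and 0 to 1 between young LT-HSCs and young bulk-HSCs. The log2 fold changes that turned sign then were Aldh2 in LT-HSCs (-0.11 to 0.0074) and bulk-HSCs (-0.034 to 0.13), Rara in ST-HSCs (-0.22 to 0.81) and bulk-HSCs (-0.30 to 0.49), Cyp26b1 in bulk-HSCs (-0.013 to 1.61), Top2b over the averaged fractions (-0.042 to 0.0426), and the difference in the Aldh1a1 age effect between LT-HSCs and ST-HSCs (-0.23 to 0.038) or bulk-HSCs (-0.38 to 0.10). Where 1 library was left out the test pooled the spread over all groups. Per kilobase of the longest transcript the order of the 8 genes did not change, with Aldh1a1 at 87.6, Aldh2 at 142, Rarb at 10.9 and Rarg at 14.9 CPM per kilobase. The ranges of Aldh1a1 and Aldh2, separate per kilobase of merged exon, overlapped by this length. The cause of these shifts was not tested.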
